A study of Homo sapiens with 108 samples.

Results

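The 10 genes described here encode proteins of the spindle checkpoint: the kinases and kinase-like proteins BUB1, BUB1B and TTK, the signalling proteins MAD1L1, MAD2L1 and BUB3, and the outer kinetochore proteins ZWILCH, KNTC1, ZWINT and SPDL1. They were taken as every probe whose single gene symbol in the array annotation was one of these names, which gave 11 of 54359 probes, and 10 of the 11 passed the filter on level and missing values that left 32060 probes for testing. SPDL1 had 2 probes, and the dimmer one (124089) was not kept. Each of the other genes had 1 probe.

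Transcripts of 6 melanoma lines of human origin were read on single-colour CodeLink arrays, a platform of short oligonucleotide probes. The lines were MeWo, the pair HMV-I and HMV-II, Colo679, C32TG and 92-1. For each line the groups were cells 3 h and 1 h after 2 Gy of carbon ions, cells 3 h and 1 h after 2 Gy of X-rays, and a separate 0 Gy control set for each beam. Each of the 36 groups held 3 arrays. Carbon ions release energy along dense tracks and X-rays release it more evenly, and the series set the early transcript response to one against the other. The 3 h and 1 h arrays of a beam share their control arrays. Whether a group's 3 arrays carried RNA of separate cultures is not in the labels, so p-values within a line measure only the spread between these arrays, which may be technical. For tests over lines, a line entered once per comparison, with its mean log2 intensity after irradiation less the mean of its own 0 Gy arrays for that beam. Changes are given as mean ± SD over 6 lines with the p-value of limma adjusted over all 32060 probes (Benjamini-Hochberg, threshold 0.05). Intensities are printed after quantile normalization, except those of cell type markers, which are as deposited. The scale is linear, and about 1 is a middle spot of an array. Arrays are said to overlap or not for single genes, and the share of all probes without overlap was not computed.

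During mitosis the spindle checkpoint holds back the separation of sister chromatids until every kinetochore, the protein plate on the centromere, is attached to microtubules. At an unattached kinetochore TTK phosphorylates the scaffold, BUB3 docks there with BUB1 and BUB1B, and MAD1L1 brings MAD2L1, which is converted into a form that binds CDC20. MAD2L1, BUB1B, BUB3 and CDC20 together block the anaphase-promoting complex, the ubiquitin ligase that marks securin and cyclin B for destruction. KNTC1 and ZWILCH belong to the RZZ complex, which ZWINT helps to hold at the kinetochore, and SPDL1 (Spindly) links that complex to the dynein motor that strips checkpoint proteins away after attachment. Many transcripts of mitosis are made mainly in late S and G2 phase.

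Between 1000 and 8034 values were missing per array, and replicate arrays correlated with r = 0.988 to 0.998 across probes. Of the 10 probes, 4 lacked 1 value each (BUB1 and BUB1B in Colo679, MAD2L1 in HMV-II, SPDL1 in MeWo), and these were left out of the fits within that line. As deposited, the 7 measured melanocyte markers together were bright in 5 lines, where they summed to between 492 and 2627 per array. Single markers were low in some of these lines: SOX10 (0.72 to 1.93 in the controls), MLANA and TYRP1 in C32TG (1.53 and 2.96) and S100B in 92-1 (0.684). The sum was lower in HMV-I (17.2 to 29.2), where MITF averaged 15.9 and PMEL 2.39 in the controls. TYR, MLANA, S100B, SOX10 and TYRP1 averaged 0.656, 0.446, 0.859, 0.597 and 0.383 there. At 3 h after either beam none of the 7 kept melanocyte markers, the 5 kept fibroblast markers or the single kept keratinocyte and leukocyte markers passed the test. The members' own levels were between 2.24 and 6.76 log2 units below the brightest spot of the same array at the closest, so none was near the top of the scale.

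At 3 h after carbon ions, 4 of the 10 genes fell and 0 rose, against 6.98% of all kept probes that fell. These were BUB1 (-0.58 ± 0.44, adjusted p = 0.0171), BUB1B (-0.64 ± 0.42, adjusted p = 0.00987), TTK (-0.55 ± 0.14, adjusted p = 0.00104) and SPDL1 (-0.75 ± 0.53, adjusted p = 0.0125), SD over n = 6 lines with limma. On the linear scale their levels were 1.497-fold, 1.56-fold, 1.46-fold and 1.68-fold lower in irradiated cells. The other 6 genes, MAD1L1, MAD2L1, BUB3, ZWILCH, KNTC1 and ZWINT, had mean changes between -0.17 (ZWILCH) and 0.08 (MAD1L1). The median change of the 10 genes was -0.14, against 0.004 for all kept probes. In bulk RNA, fewer cells in the phase that makes these transcripts and less RNA per cell cannot be told apart.

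**Figure D1:**
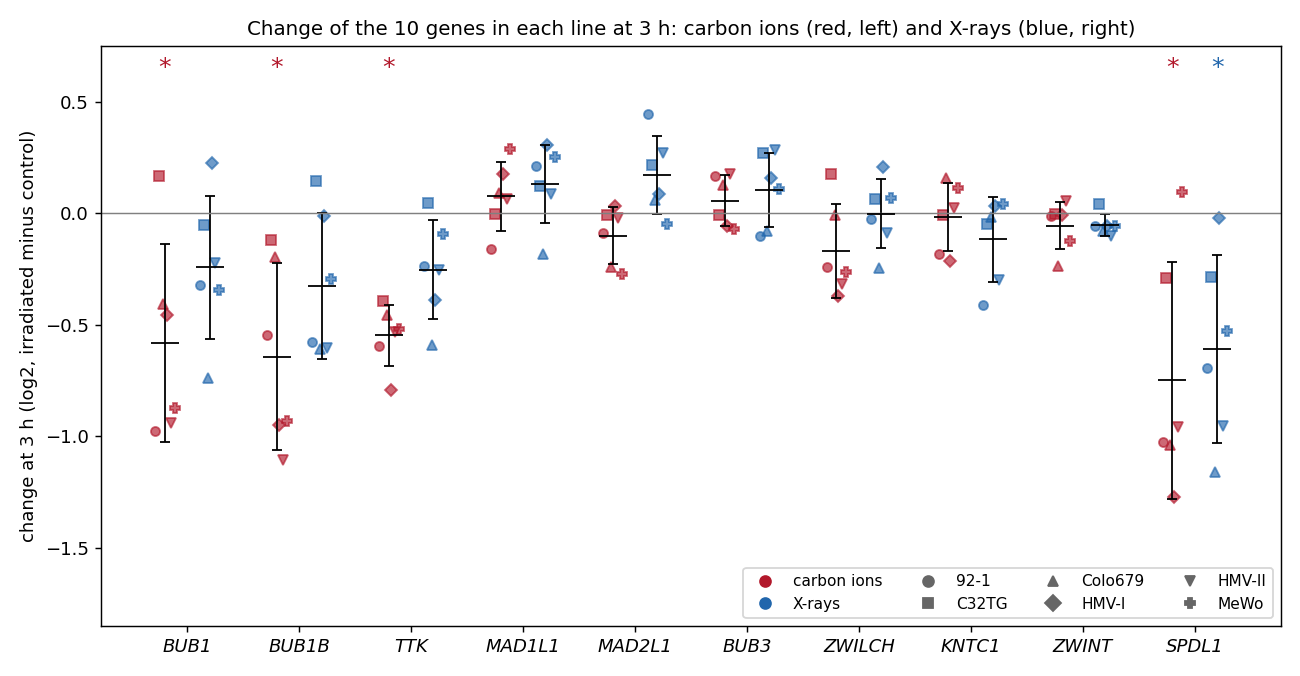
Change at 3 h in log2 units (irradiated minus the control of the same beam) for each of the 10 genes, after carbon ions (red) and X-rays (blue), with 1 symbol per line and the mean ± SD of 6 lines in black. Asterisks mark an adjusted p under 0.05 across lines: BUB1, BUB1B, TTK and SPDL1 after carbon ions, and SPDL1 after X-rays.

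TTK, the kinase that starts the signal, had the most even fall of the 4 genes. In HMV-I its intensity was 8.45, 7.58 and 8.25 at 3 h after carbon ions, against 12.7, 14.4 and 14.98 in the controls. In MeWo it was 6.47, 5.63 and 5.67, against 8.53, 9.003 and 7.95. In both lines every irradiated array lay below every control array. In C32TG it was 6.61, 6.78 and 5.296 at 3 h, against 7.48, 8.28 and 8.71 in the controls. In Colo679 it was 4.34, 4.91 and 3.95, against 5.99, 6.25 and 5.82, and in HMV-II 5.04, 4.61 and 5.07, against 6.82, 7.197 and 7.25. These 3 lines again showed no overlap. The arrays overlapped in 92-1 alone, with 3.95, 5.89 and 4.38 at 3 h, against 7.78, 7.69 and 5.86. The log2 change per line ran from -0.79 in HMV-I to -0.40 in C32TG, lower in 6 of 6 lines. Within lines limma called TTK in 5 of 6, with adjusted p from 1.45e-05 (HMV-I) to 0.0268 (C32TG), and 0.0799 in 92-1.

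BUB1B encodes BUBR1, the checkpoint protein that binds CDC20 and blocks the anaphase-promoting complex. In HMV-I it had 2.62, 3.44 and 2.702 at 3 h after carbon ions, against 5.51, 5.93 and 5.38 in the controls. In HMV-II it had 1.69, 1.89 and 1.47, against 3.36, 4.08 and 3.45, and in MeWo 0.802, 0.681 and 0.675, against 1.68, 1.52 and 1.003. No irradiated array reached a control array in these 3 lines, whose changes were -0.95, -1.11 and -0.93, each called within the line (adjusted p = 0.000511, 0.00473 and 0.00187 with limma). In 92-1 the values were 1.91, 2.27 and 2.04 at 3 h, against 3.91, 3.22 and 2.19, with 1 irradiated array above the lowest control. In C32TG they were 4.15, 4.14 and 3.84, against 4.32, 4.69 and 4.198, apart but close. In Colo679, the line with the lowest BUB1B, they were 0.861, 1.42 and 0.932, against 1.18, 1.37 and 1.07. The Colo679 arrays overlapped, and one irradiated array was the highest of the 6. Changes in 92-1, C32TG and Colo679 were -0.55, -0.12 and -0.20. BUB1B was lower in 6 of 6 lines.

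BUB1, the kinase that marks centromeres and recruits other checkpoint proteins, had the widest spread over lines of BUB1, BUB1B and TTK. In HMV-II it had 2.95, 2.91 and 3.07 at 3 h after carbon ions, against 5.85, 5.96 and 5.38 in the controls. In MeWo it had 1.11, 1.09 and 1.04, against 2.36, 2.34 and 1.396, and in 92-1, 1.803, 4.01 and 3.74, against 6.805, 5.53 and 5.496. The irradiated arrays were all lower in these lines, with changes of -0.94, -0.88 and -0.98, although the wide spread of the 92-1 arrays left that change uncalled within the line (adjusted p = 0.0589 with limma). In HMV-I the values were 5.31, 6.91 and 5.15 at 3 h, against 7.11, 8.15 and 8.45. In Colo679 they were 3.498, 3.704 and 2.58, against 4.66, 4.45 and 3.77. Both sets were apart, with changes of -0.46 and -0.41. C32TG went the other way, with 5.34, 5.52 and 5.17 at 3 h, against 4.53, 5.41 and 4.399, a change of 0.17 with overlapping arrays. The change of BUB1 differed between lines beyond the spread of the arrays (adjusted p = 0.00823, limma's F over 36 groups; 22.6% of all probes differed so). Leaving out 92-1 (adjusted p = 0.0595) or HMV-II (adjusted p = 0.058) ended its call across lines.

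SPDL1, the dynein adaptor at the kinetochore, had the largest mean fall and the widest spread of the 10. In HMV-I its brighter probe gave 3.91, 3.47 and 3.16 at 3 h after carbon ions, against 10.2, 8.58 and 6.92 in the controls. In 92-1 it gave 1.91, 2.38 and 1.37, against 4.63, 3.72 and 3.05, and in Colo679 1.198, 0.8695 and 0.751, against 2.103, 1.88 and 1.73. The irradiated arrays were all lower, with log2 changes of -1.27, -1.03 and -1.04. In HMV-II it gave 1.38, 1.28 and 0.654 at 3 h, against 2.62, 1.76 and 1.85. In C32TG it gave 2.13, 2.09 and 2.09, against 2.37, 2.72 and 2.66. These 2 lines showed no overlap either, with changes of -0.96 and -0.29. MeWo was different: it had 0.421 and 0.911 on the 2 arrays with a value, against 0.666, 0.608 and 0.478, all dimmer than any other line's controls. The MeWo change was 0.10, and the difference between lines passed (adjusted p = 0.00658, limma's F). Without the first-numbered array of every group the fall was -0.64 and no longer passed (adjusted p = 0.0746). The dimmer SPDL1 probe, with an intensity of 0.508 to 0.651 in the controls of the 6 lines, changed by -0.17 ± 0.16 (SD, n = 6 lines) and was not tested.

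**Figure D2:**
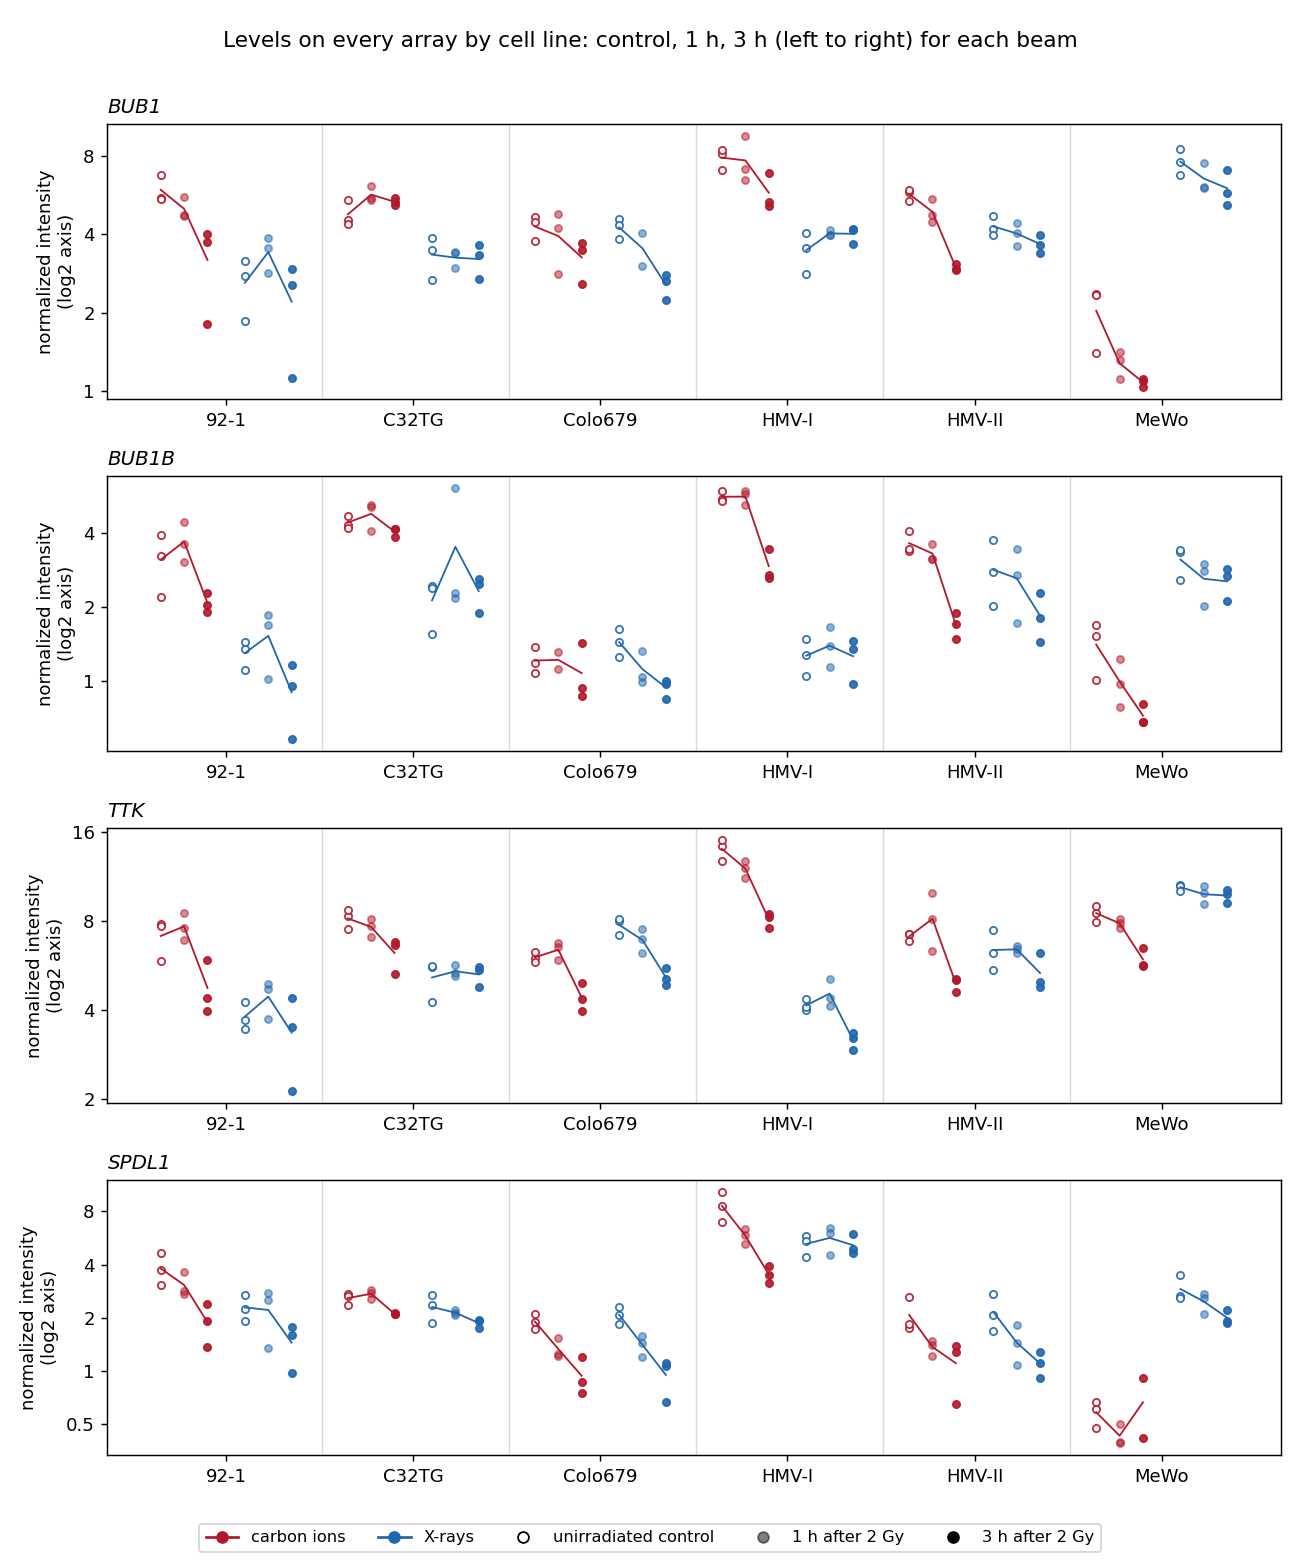
Normalized intensity (log2 axis) of BUB1, BUB1B, TTK and SPDL1 on every array, by line, with control, 1 h and 3 h from left to right for carbon ions (red) and X-rays (blue), and thin segments joining group means. TTK arrays at 3 h after carbon ions lie below the controls in 5 lines, and MeWo controls of the carbon-ion set are far below those of the X-ray set for BUB1 and SPDL1.

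The promoters of the genes that fell are shown because short elements near the start site are known to mark genes of G2 phase and mitosis: the CHR (TTTGAA, or its variant TTTAAA), bound by complexes that contain MuvB proteins, and the CCAAT box, bound by NF-Y. The RefSeq promoter table (GRCh38.p14) had entries for 7 of the 10 genes, none of them TTK, BUB3 or KNTC1. BUB1 (chr2:110678064-110678313, minus strand), BUB1B (chr15:40160819-40161068, plus strand) and SPDL1 (1 of its 2 listed starts, chr5:169583523-169583772, plus strand) are genes that fell at 3 h after carbon ions. ZWINT (chr10:56361260-56361509, minus strand), which did not pass, is given beside them. Each sequence is the 250 bases before the start, 5′ to 3′, with capitals on TTTGAA and CCAAT or their reverse complements TTCAAA and ATTGG.
BUB1: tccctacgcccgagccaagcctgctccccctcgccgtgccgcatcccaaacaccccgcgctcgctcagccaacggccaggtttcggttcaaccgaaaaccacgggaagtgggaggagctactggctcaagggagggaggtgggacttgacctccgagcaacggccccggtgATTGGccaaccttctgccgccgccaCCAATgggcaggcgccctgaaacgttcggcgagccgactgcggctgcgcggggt
BUB1B: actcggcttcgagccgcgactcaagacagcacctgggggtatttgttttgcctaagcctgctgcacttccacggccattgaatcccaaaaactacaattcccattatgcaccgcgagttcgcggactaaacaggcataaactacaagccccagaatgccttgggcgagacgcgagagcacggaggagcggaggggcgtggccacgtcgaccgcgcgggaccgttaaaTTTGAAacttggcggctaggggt
SPDL1: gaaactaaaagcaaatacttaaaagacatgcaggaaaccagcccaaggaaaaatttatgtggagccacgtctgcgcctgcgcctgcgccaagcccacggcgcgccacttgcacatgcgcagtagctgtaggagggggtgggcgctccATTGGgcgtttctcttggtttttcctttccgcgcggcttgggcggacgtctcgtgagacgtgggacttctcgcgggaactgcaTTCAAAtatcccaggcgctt
ZWINT: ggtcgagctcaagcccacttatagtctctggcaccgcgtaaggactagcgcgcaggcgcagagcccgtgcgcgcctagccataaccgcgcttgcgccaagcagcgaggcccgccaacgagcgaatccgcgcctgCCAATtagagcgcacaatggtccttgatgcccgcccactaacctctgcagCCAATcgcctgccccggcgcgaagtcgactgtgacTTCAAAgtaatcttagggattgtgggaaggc
On both strands of the 300 bases from 250 before to 50 after the start, TTTGAA occurred in 4 of the 7 genes (BUB1B, MAD2L1, ZWINT and SPDL1), against 15.2% of all promoters in the table. CCAAT occurred in 5 (BUB1, MAD2L1, ZWILCH, ZWINT and SPDL1), against 34.6%. A gene was counted if any of its entries held the motif, while the share of all promoters is per entry. ZWINT and SPDL1 had an entry for each of their listed starts, which can raise the count of genes. No entry held TTTAAA (12.2% of all promoters) or the E2F-like GGCGGGAA (3.16%), and MAD1L1 held none of the motifs. The motifs do not overlap each other. ZWINT had both elements and its change was -0.06 ± 0.11 (adjusted p = 0.476 with limma), while BUB1 held CCAAT without TTTGAA and BUB1B held TTTGAA without CCAAT. The other SPDL1 start in the table held no match.

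MAD1L1, MAD2L1 and BUB3, which carry the signal from the kinetochore, did not pass at 3 h after carbon ions. MAD2L1 was bright and steady, with group means between 66.9 and 117.6 at 3 h and between 67.8 and 119.3 in the controls, and its change was -0.10 ± 0.13 (adjusted p = 0.23 with limma). It fell within 2 lines. In MeWo it had 96.2, 104.1 and 95.9 at 3 h, against 115.3, 119.4 and 123.1, and in Colo679 70.1, 69.6 and 60.9, against 79.2, 78.97 and 78.7. Both sets of arrays were apart, with changes of -0.27 and -0.24 (adjusted p = 0.0136 and 0.0299 within the line, limma). BUB3, the docking partner of BUB1 and BUB1B, changed by 0.05 ± 0.11, lower in 3 of 6 lines. MAD1L1 changed by 0.08 ± 0.15, higher in 4 of 6 lines.

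Of the kinetochore proteins around the RZZ complex, ZWILCH fell within HMV-I and HMV-II by limma (adjusted p = 0.0106 and 0.0423). In HMV-I it had 6.63, 7.96 and 8.03 at 3 h after carbon ions, against 9.92, 9.13 and 10.1 in the controls. In HMV-II it had 13.4, 16.6 and 14.1, against 17.1, 20.3 and 17.4. The arrays of both lines were apart, with changes of -0.37 and -0.32, and in C32TG the change was 0.18. Over 6 lines ZWILCH changed by -0.17 ± 0.21 (adjusted p = 0.133), and without C32TG it passed at -0.24 (adjusted p = 0.0301). KNTC1, the large subunit of the complex, changed by -0.02 ± 0.15, with 3 lines lower and 3 higher. ZWINT had a mean change of -0.06 ± 0.11, and of the 6 lines only MeWo had all irradiated arrays, 84.95, 76.2 and 83.5, below the controls, 91.1, 89.3 and 85.97.

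Counted within lines at 3 h after carbon ions, limma called 5 of 10 genes lower in HMV-I (6.76% of probes there), 5 of 9 in HMV-II (4.9%), 4 of 9 in MeWo (11.5%), 3 of 8 in Colo679 (8.4%), 1 of 10 in 92-1 (SPDL1, 3.95%) and 1 of 10 in C32TG (TTK, 4.45%). None was called higher in any of the 6 lines. These 19 calls became 9 to 13 when the arrays of 1 replicate number were left out. HMV-I and HMV-II shared the same 5 genes, BUB1, BUB1B, TTK, ZWILCH and SPDL1. In C32TG the mean change of the 10 genes was -0.05, against -0.22 to -0.39 in the other lines.

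CDKN1A encodes p21, the inhibitor of cyclin-dependent kinases that p53 induces. CDKN1A rose at 3 h after carbon ions by 2.23 in 92-1, 1.91 in C32TG, 1.20 in Colo679, 0.90 in HMV-II, 0.61 in MeWo and 0.34 in HMV-I (1.20 ± 0.74, adjusted p = 0.00644 with limma). In the same order of lines, the mean change over the 10 genes was -0.37 in 92-1, -0.05 in C32TG, -0.22 in Colo679, -0.36 in HMV-II, -0.26 in MeWo and -0.39 in HMV-I. CDKN1A and the 10 genes were read on the same arrays of 6 lines, and the relation between them was not tested.

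At 3 h after X-rays, 1 of the 10 genes fell and 0 rose (4.19% of probes fell). SPDL1 fell by 0.61 on the log2 scale (SD 0.42, n = 6 lines, adjusted p = 0.00999 with limma), a level 1.52-fold lower. In Colo679 it had 0.665, 1.07 and 1.11 at 3 h, against 1.84, 2.31 and 2.08 in the controls, and in HMV-II 1.11, 1.28 and 0.917, against 2.72, 2.08 and 1.68. In 92-1 it had 1.600, 0.969 and 1.77, against 2.701, 1.93 and 2.24, and in MeWo 1.88, 2.202 and 1.92, against 2.66, 3.48 and 2.59. The irradiated arrays were all lower in these 4 lines. In C32TG it had 1.91, 1.95 and 1.74, against 1.86, 2.68 and 2.37, with overlap. In HMV-I it had 4.62, 4.89 and 5.93, against 4.42, 5.81 and 5.46, a change of -0.02 with overlap. These values are of the brighter probe. The dimmer SPDL1 probe, which was not tested, changed by 0.03 ± 0.21, lower in 3 lines and higher in 3. The change of SPDL1 differed between lines (adjusted p = 0.04, limma's F; 20.5% of probes differed so).

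BUB1, BUB1B and TTK had mean changes after X-rays that did not pass across lines with limma: BUB1B -0.33 ± 0.33 (adjusted p = 0.0586), TTK -0.25 ± 0.22 (adjusted p = 0.0561) and BUB1 -0.24 ± 0.32 (adjusted p = 0.146), each lower in 5 of 6 lines. Median centring (BUB1B adjusted p = 0.0496) or the values as deposited (BUB1B 0.0242, TTK 0.029) brought some below the threshold. So did leaving out C32TG (BUB1B 0.024, TTK 0.035) or HMV-I (BUB1 0.0358, BUB1B 0.0386). In Colo679 TTK had 4.86, 5.52 and 5.07 at 3 h, against 7.997, 8.13 and 7.14. HMV-I had 2.92, 3.35 and 3.22, against 4.001, 4.34 and 4.08. Both lines showed no overlap, with changes of -0.59 and -0.39 (adjusted p = 0.000535 and 0.00543 within the line). MAD2L1 had the opposite sign, with a mean change of 0.17 ± 0.18 (adjusted p = 0.111, and 0.0178 at 0.26 with median centring), and rose within 92-1, where it had 103.2, 83.6 and 99.2 at 3 h, against 69.5, 68.4 and 71.6. The MAD2L1 arrays of 92-1 did not overlap (change 0.44, adjusted p = 0.0254).

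Within lines after X-rays, limma called at 3 h KNTC1 lower and MAD2L1 higher in 92-1 (4.95% of probes in either direction), BUB3 higher in C32TG (7.02%), TTK and SPDL1 lower in Colo679 (19.2%), TTK lower in HMV-I (14.6%), SPDL1 lower in HMV-II (3.19%), and 0 of 9 in MeWo (3.64%; 2 of the 9 had an unadjusted p under 0.05, and the fit that kept probes with a missing value called 0 of 10). In Colo679, BUB1 and BUB1B had 1 missing array at 1 h and were not tested. When the missing value was allowed, both fell at 3 h, by 0.74 and 0.61 on the log2 scale (adjusted p = 0.00722 and 0.016). BUB3 in C32TG had 24.1, 21.7 and 26.1 at 3 h, against 18.9, 20.1 and 20.7 in the controls. All 3 irradiated arrays were higher, a change of 0.27 (adjusted p = 0.0361 with limma). KNTC1 in 92-1 had 15.2, 13.2 and 16.4 at 3 h, against 18.1, 21.3 and 20.1. All 3 irradiated arrays were lower, a change of -0.41 (adjusted p = 0.016). The 3 h change after X-rays differed between lines for MAD2L1 (adjusted p = 0.02), BUB3 (0.0485) and KNTC1 (0.00854) as well as SPDL1, by limma's F. Leaving out the arrays of 1 replicate number left 0 to 1 of these 4 calls, and 0 to 3 for carbon ions in place of 2.

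**Figure D3:**
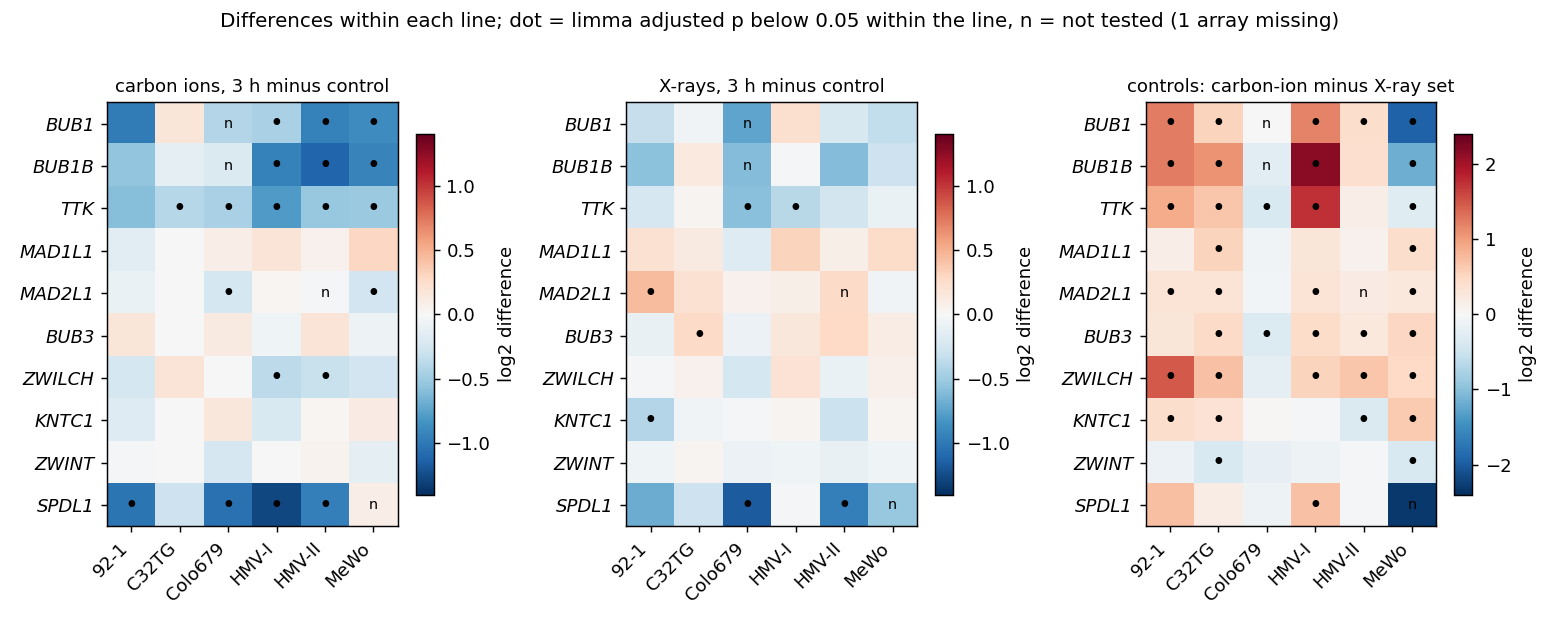
Log2 differences of the 10 genes (rows) in the 6 lines (columns) at 3 h after carbon ions, at 3 h after X-rays, and between the control sets (carbon-ion minus X-ray set, on a wider colour scale). Dots mark an adjusted p under 0.05 within the line and n marks a gene with a missing array; the carbon-ion panel holds 19 calls, all lower, and the control panel 37 calls in both directions.

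At 1 h after carbon ions, SPDL1 had already fallen, by 0.38 on the log2 scale (SD 0.25, lower in 5 of 6 lines, adjusted p = 0.0109 with limma; 6.03% of probes fell). The HMV-I arrays gave 5.91, 5.23 and 6.33 at 1 h, against 10.2, 8.58 and 6.92 in the controls, and the Colo679 arrays 1.21, 1.53 and 1.25, against 2.103, 1.88 and 1.73. Both sets were apart. The dimmer SPDL1 probe, which was not tested, changed by -0.04 ± 0.20, lower in 4 of 6 lines. MAD1L1, the anchor of MAD2L1 at the kinetochore, rose by 0.15 ± 0.06 in 6 of 6 lines (adjusted p = 0.0374; 4.67% of probes rose). Its arrays overlapped in 5 of the 6 lines, and leaving out any of the 6 lines in turn ended the call (adjusted p = 0.0562 to 0.103), as did leaving out the first-numbered or third-numbered array of every group (adjusted p = 0.169 and 0.278), using the values as deposited (0.12), dropping the filter on level (0.071), normalizing all probes together (0.209) and fitting every array (0.085). MAD2L1 passed at 1 h with median centring (0.23, adjusted p = 0.0208), as deposited (0.198, adjusted p = 0.0295) and in the fit to every array (0.11, adjusted p = 0.0146). BUB1 passed at 1 h without C32TG (-0.26, adjusted p = 0.0482). Within lines, limma called SPDL1 lower in HMV-I (2.45% of probes) and BUB1 lower in MeWo (6.87%), where BUB1 had 1.41, 1.31 and 1.104 at 1 h, against 2.36, 2.34 and 1.396, with overlap. After X-rays 0 of the 10 genes passed at 1 h with limma (1.15% of probes passed). An unadjusted p under 0.05 was held by 1 gene and by 4412 of all kept probes. The fit to every array called 1, MAD2L1. Within 92-1, MAD2L1 was called higher (0.51, adjusted p = 0.0212; 0.543% of probes), with 105.4, 85.9 and 108.4, against 69.5, 68.4 and 71.6 and no overlap.

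Set directly against 1 h, the 3 h arrays after carbon ions were lower for 4 of the 10 genes (1.12% of probes): TTK with a difference of -0.54 ± 0.16 (adjusted p = 0.0022), BUB1B of -0.60 ± 0.35 (adjusted p = 0.0137), BUB1 of -0.41 ± 0.27 (adjusted p = 0.025) and MAD2L1 of -0.21 ± 0.08 (adjusted p = 0.0227), each in 6 of 6 lines with limma. Against the controls, the 1 h changes had been -0.01 (TTK), -0.04 (BUB1B) and -0.18 (BUB1), none past the threshold. MAD2L1 had a 1 h change of 0.11 (higher in 5 of 6 lines, adjusted p = 0.152) and a 3 h change of -0.10, so its difference between the times spans both sides of the control level. The MAD2L1 call ended with median centring (adjusted p = 0.124), with the values as deposited (adjusted p = 0.058) and without the first-numbered arrays (adjusted p = 0.128), and the BUB1 call ended without the third-numbered arrays (adjusted p = 0.147). SPDL1 had the same sign in 5 of 6 lines (-0.37 ± 0.47, adjusted p = 0.173). MeWo was the exception, at 0.53, and without it the SPDL1 difference passed at -0.55 (adjusted p = 0.00821). After X-rays SPDL1 alone was called with limma (-0.36 ± 0.20, 6 of 6 lines, adjusted p = 0.0329, against 0.296% of probes that were lower). The dimmer SPDL1 probe, which was not tested, went the other way there (0.19 ± 0.19, higher in 6 of 6 lines). Among these, the calls of BUB1 and MAD2L1 after carbon ions and of SPDL1 after X-rays each ended when any of 4 single lines was left out, with adjusted p up to 0.0733, 0.075 and 0.124.

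**Figure D4:**
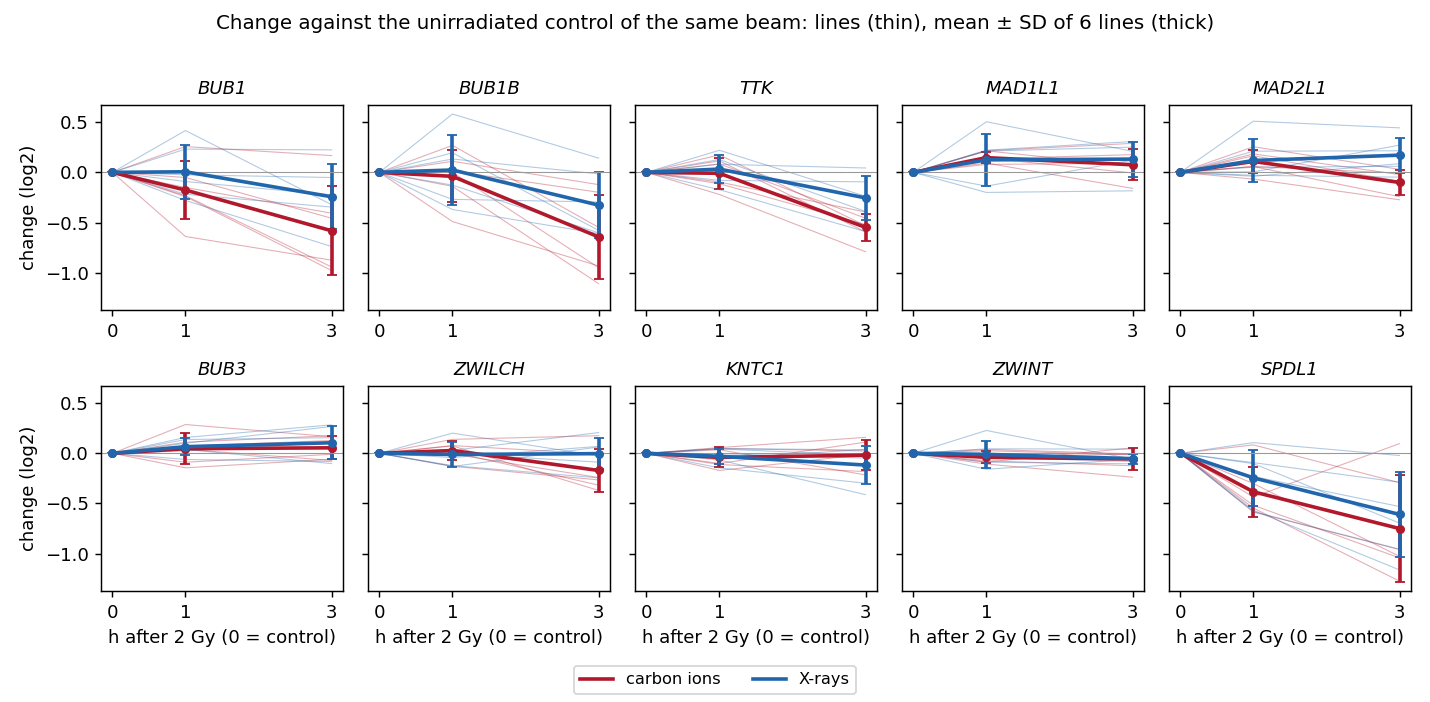
Change against the control of the same beam (log2) at 1 h and 3 h for the 10 genes, with thin traces for lines and thick traces for the mean ± SD of 6 lines, carbon ions in red and X-rays in blue. After carbon ions the means of BUB1B and TTK are near 0 at 1 h and lower at 3 h, and that of SPDL1 is below 0 at both times. After X-rays, of these values only SPDL1 at 3 h passed the test.

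The beams were compared as the change after carbon ions minus the change after X-rays in the same line. At 3 h 0 of 10 genes passed across lines with limma, as did 0% of all probes. At an unadjusted p under 0.05 there were 4 of the 10 genes, BUB1, BUB1B, TTK and MAD2L1, and 1430 of all 32060 kept probes. All 4 genes were lower after carbon ions (adjusted p = 1 for each). The fit to every array called 2 (TTK and MAD2L1), and its share over all probes is not given here. The 95% intervals that follow are not adjusted for the number of probes. MAD2L1 differed by -0.27 ± 0.16 in the same direction in 6 of 6 lines (95% interval of limma's fit -0.42 to -0.12), since carbon ions gave -0.10 and X-rays 0.17 against their own controls. TTK differed by -0.29 ± 0.22, lower in 5 of 6 lines (-0.47 to -0.12). BUB1 differed by -0.34 ± 0.48 (-0.63 to -0.04) and BUB1B by -0.32 ± 0.48 (-0.62 to -0.02). As levels, the 3 h arrays (carbon ions minus X-rays) differed by -0.04 ± 0.23 for MAD2L1, and its control sets by 0.23 ± 0.15. For TTK the 3 h and control differences were 0.18 ± 0.72 and 0.47 ± 0.81. For BUB1B they were 0.26 ± 1.16 and 0.58 ± 1.18, and for BUB1 -0.10 ± 1.22 and 0.24 ± 1.17. The part of the control sets in the beam differences was not tested. For SPDL1 the interval of -0.51 to 0.23 around a mean of -0.14 covered differences in both directions. The beam difference at 1 h was called for 0 genes and 0% of probes. At an unadjusted p under 0.05 there were 0 genes and 2421 of all kept probes, and the fit to every array called 0 genes.

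Within lines the beam difference at 3 h was called for 5 gene and line pairs, each lower after carbon ions: BUB1B (-0.93), ZWILCH (-0.58) and SPDL1 (-1.25) in HMV-I (1.58% of probes), BUB1 (-0.72) in HMV-II (0.24%) and TTK (-0.43) in MeWo (1.1%). The adjusted p-values were 0.0247, 0.0199, 0.00446, 0.0382 and 0.0426 with limma. Leaving out the arrays of any 1 replicate number left 0 to 1 of the 5 calls. In HMV-I the carbon-ion set also had much higher starting levels, as described next, and the part of that in the beam difference was not tested.

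The control sets of the beams, which had received no dose, differed in level within most lines. Across lines limma called 0 of the 10 genes and 0% of all probes. Here 4 genes and 3116 of all kept probes had an unadjusted p under 0.05. The fit to every array, which takes arrays as replicates, called 9 genes, and its share over all probes is not given here. Within lines limma called 37 gene and line pairs. HMV-I had 7 of 10 genes higher in the carbon-ion controls (23.1% of probes were higher, and 46.9% differed in either direction). BUB1B had 5.51, 5.93 and 5.38 in the carbon-ion controls, against 1.04, 1.48 and 1.27 in the X-ray controls, and TTK had 12.7, 14.4 and 14.98, against 4.001, 4.34 and 4.08. Neither gene overlapped, with differences of 2.16 and 1.76. After irradiation the HMV-I levels at 3 h still differed, with BUB1B at 2.62, 3.44 and 2.702 after carbon ions, against 0.967, 1.46 and 1.34 after X-rays. In HMV-I the carbon-ion arrays at 3 h were above the X-ray controls for both BUB1B and TTK.

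MeWo differed most widely, with 70.3% of all probes called between its control sets, and 4 genes lower and 5 higher in the carbon-ion controls. BUB1 had 2.36, 2.34 and 1.396 in the carbon-ion controls, against 8.54, 6.78 and 7.58 in the X-ray controls, a difference of -1.94. SPDL1 had 0.666, 0.608 and 0.478, against 2.66, 3.48 and 2.59, a difference of -2.32. The sets were far apart for both genes. KNTC1 went the other way in MeWo, by 0.62. In C32TG 8 genes were higher and ZWINT lower in the carbon-ion controls (43.5% of probes), in 92-1 6 were higher (15.1%), in HMV-II 3 were higher and KNTC1 lower (22.1%), and in Colo679 TTK and BUB3 were lower (13.8%). ZWILCH was higher in the carbon-ion controls of 5 of 6 lines (0.61 ± 0.54), and ZWINT was lower in 6 of 6 (-0.21 ± 0.13), both short of the threshold across lines (adjusted p = 0.416 and 0.484). The labels do not say what else differed between the control sets, and the part of these differences in the changes was not tested.

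Levels in the controls differed between lines for 10 of the 10 genes by limma's F, as for 97.5% of all probes, so this is a property of nearly every probe. The order of the lines is given within each control set, as means ± SD of n = 3 arrays. The highest line was the same in both sets, with no overlap with the other lines, for ZWILCH, KNTC1 and SPDL1. The share of all probes with this pattern was not computed, so it is not read as particular to these genes. HMV-II was highest for ZWILCH, with 18.3 ± 1.8 in the carbon-ion controls and 11.5 ± 0.1 in the X-ray controls, and for KNTC1, with 35.1 ± 1.95 and 44.7 ± 2.5. HMV-I was highest for SPDL1, with 8.58 ± 1.66 in the carbon-ion controls and 5.23 ± 0.72 in the X-ray controls. Colo679 had the highest ZWINT mean in both sets (118.6 ± 13.1 and 135.2 ± 6.6), and its arrays overlapped those of HMV-I in the carbon-ion set and those of MeWo in the X-ray set. For MAD2L1 the arrays of HMV-II and MeWo overlapped at the top of both sets. For MAD1L1 HMV-I held the highest array in both sets (4.97 and 4.08), and its arrays overlapped those of C32TG and MeWo in the carbon-ion set. The highest line differed between the sets for BUB1, BUB1B, TTK and BUB3. For BUB3 it was HMV-I in the carbon-ion controls (35.7 to 43.7, overlapping 92-1) and Colo679 in the X-ray controls (39.42 to 39.85, no overlap). In the carbon-ion controls HMV-I was highest for BUB1, BUB1B and TTK, at 7.90 ± 0.70, 5.61 ± 0.29 and 14.02 ± 1.17, above every array of the other lines. In the X-ray controls MeWo was highest, at 7.63 ± 0.88 for BUB1 and 10.4 ± 0.3 for TTK, above every array of the other lines, and at 3.11 ± 0.47 for BUB1B, where its arrays overlapped those of HMV-II. ZWILCH was lowest in Colo679 (4.75 ± 0.60) in the carbon-ion controls and in 92-1 (3.07 ± 0.36) in the X-ray controls.

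Other genes around the checkpoint were read at 3 h after carbon ions against the 6.98% of all kept probes that fell and the 6.43% that rose. Of 11 measured genes of the kinetochore scaffold, 3 fell and 0 rose: NDC80 (-0.50 ± 0.20) and NUF2 (-0.44 ± 0.25), which grip microtubules, and CENPE (-0.38 ± 0.26), a kinetochore motor, each in 6 of 6 lines. Of 21 measured genes of the anaphase-promoting complex and its targets, 6 fell and 0 rose, led by CDC20 (-0.46 ± 0.24), the protein that the checkpoint holds captive, and with ANAPC4 (-0.38 ± 0.21), a subunit of the complex, and the cyclins CCNB1 (-0.34 ± 0.30) and CCNA2 (-0.34 ± 0.20) among them. Adjusted p-values of these 7 genes ran from 0.00253 to 0.0343 with limma. Of 19 other checkpoint and silencing genes, 1 fell, CDCA8 of the chromosomal passenger complex (-0.33 ± 0.15, adjusted p = 0.00723), and ZW10, the RZZ partner of KNTC1 and ZWILCH, had a mean change of 0.01 ± 0.15 (adjusted p = 0.948). That count of 1 in 19 is near the share of all kept probes. The medians of the 3 lists were -0.07, -0.11 and -0.05, against 0.004 for all kept probes.

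Of 16 measured S-phase genes, which serve replication, 0 fell and 1 rose, TYMS (0.24 ± 0.11, adjusted p = 0.0161 with limma), which is near the share of all kept probes that rose. Of 15 measured regulators around the DREAM and MuvB complexes, LIN52 (-0.23 ± 0.16) and NFYB (-0.42 ± 0.33) fell, and TFDP2 (0.23 ± 0.10) rose beside CDKN1A. The 3 h calls made up 13.4% of all kept probes for carbon ions and 7.15% for X-rays. In the X-ray comparison at 3 h, of the same lists, CENPE (-0.22 ± 0.15), SGO2 (-0.25 ± 0.15), ANAPC4 (-0.27 ± 0.16) and LIN52 (-0.23 ± 0.08) fell. ANAPC15 (0.22 ± 0.11), TYMS (0.20 ± 0.08) and CDKN1A (1.18 ± 0.81) rose. At most 1 gene per list fell and at most 1 rose, with 11 to 21 measured genes in a list. Of all kept probes 4.19% fell and 2.96% rose, so these counts are not read as a result about the lists.

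The changes of some of the 10 genes ran together over the 24 combinations of line, beam and time, which share controls between times and are not independent. Pearson's r was 0.84 between BUB1 and ZWILCH, 0.78 between BUB1 and BUB1B, and 0.76 between BUB1B and TTK. With SPDL1, BUB1, BUB1B and TTK had r = 0.58 to 0.60. BUB3 and KNTC1 had r = 0.02 and 0.01 with BUB1. Of 13661 other named genes, those most like TTK were BORA (0.88), KIF20A (0.86), CKAP2 (0.84), LMNB1 (0.82) and PIF1 (0.82). Those most like BUB1B were STK3 (0.87), DEPDC1B (0.85), ZNF184 (0.85), PTMA (0.84) and SLC18B1 (0.82). Those most like BUB1 were IKBKB (0.87), CD46 (0.86), RAB38 (0.85), TYRP1 (0.85) and BMI1 (0.85). BORA, an activator of Aurora A and PLK1, and KIF20A, a kinesin of cytokinesis, act in mitosis. These values describe the 24 changes and carry no test.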

How the data were processed

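RNA of 6 melanoma lines, extracted with ISOGEN and RNeasy and labelled with biotin for CodeLink arrays, was measured on single-colour arrays, per the labels' protocols. The authors deposited 1 spot intensity per probe and array, from 0.165 to 1236. The software, background step and scaling behind these values were not given in the sources used here. Array medians ranged over 0.38 log2 units.

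Groups came from the labels. Probes were kept with at most 10% missing values, a mean log2 intensity above the 40th percentile (-0.41) and a value in every group, which left 32060 of 54359. Kept log2 values were quantile normalized. Each group held 3 arrays. Of all probes, 23472 had 1 gene symbol, 905 several and 29982 none in the platform annotation. Each comparison used 1 value per line and limma 3.58.1 (R 4.3.3, eBayes with trend) over 6 lines, adjusted over all kept probes. Differences within a line used limma on its 18 arrays, probes with a missing value there left out. Differences between lines used limma's F over 36 groups. The scripts were tested on simulated data. The 10 genes, the other gene lists and the tests were chosen with earlier results of these data known. Named beside the 10 genes were up to 4 called genes per list (largest change first), CDKN1A, and for BUB1, BUB1B and TTK the 5 genes most alike by Pearson's r. Alternatives were other normalizations, filters, lines or replicates left out, and a fit to all arrays. Figures used Python 3.11.15 and matplotlib 3.10.9. The number of arrays limits the precision.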

Additional observations from a re-analysis of the deposited data

Results flagged for a closer look

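Over 90 sets of 6 line values (10 genes in 9 comparisons), 7 held a line far from the other 5, by a gap above 0.625 of the whole range. Chance would flag about 1 in 20 sets of 6 independent, normally distributed values. The comparisons share arrays and the distribution was not checked, so the 7 sets are not judged against that rate. SPDL1 held 2 of them in MeWo, where its control level was -2.32 log2 units lower in the carbon-ion set than in the X-ray set (nearest line -0.13), and where the 3 h arrays minus the 1 h arrays after carbon ions gave 0.53 (nearest line -0.37). In MeWo the SPDL1 intensities of the carbon-ion set lay under 1 in every array at 3 h and in the controls, and 1 of the 3 h arrays had no value. Colo679 held 3: the beam difference of TTK at 3 h was 0.13 there (nearest line -0.27), and the difference between control sets was -0.059 for MAD2L1 (nearest line 0.19) and -0.32 for BUB3 (nearest line 0.25). ZWINT held 2: its change at 3 h after X-rays was 0.042 in C32TG (nearest line -0.06), and its 3 h arrays minus its 1 h arrays after X-rays gave -0.29 in HMV-I (nearest line -0.04).

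Of 20 tests of whether a 3 h change differed between lines, 6 passed by limma's F, against 22.6% of all kept probes after carbon ions and 20.5% after X-rays. After carbon ions these were 2 of 10, near the share of all probes: BUB1 (adjusted p = 0.00823) and SPDL1 (adjusted p = 0.00658). After X-rays they were 4 of 10: MAD2L1 (adjusted p = 0.0200), BUB3 (adjusted p = 0.0485), KNTC1 (adjusted p = 0.00854) and SPDL1 (adjusted p = 0.0400).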

How the results depend on the processing

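Values of single genes were recomputed 811 times over 17 settings. They covered every gene in the changes from control, and otherwise genes called in some setting. Of these values, 728 stayed on the same side of the threshold, 36 lost the threshold, 47 gained it and 0 turned direction while called. Among the 728, uncalled changes from control differed in sign in 53 of 516 cases. At 3 h after carbon ions, TTK and BUB1B passed in every setting that tested them. The main count of 4 genes became 1 when probes with any missing value were left out, which leaves BUB1, BUB1B, MAD2L1 and SPDL1 untested, and it was 3 to 5 without 1 line and 3 to 4 without 1 replicate. At 3 h after X-rays the count of 1 became 3 with median centring, 3 with the values as deposited, 0 with complete probes only, 1 to 3 without 1 line and 1 to 2 without 1 replicate. At 1 h after carbon ions the count of 2 became 1 with no filter on level, with complete probes only and with quantile normalization of all probes, and was 1 to 2 without 1 line or 1 replicate. It stayed 2 with the values as deposited, where MAD1L1 lost its call and MAD2L1 gained one, and became 3 with median centring, which added MAD2L1. For 3 h against 1 h after carbon ions the count of 4 became 1 with complete probes only, 2 to 4 without 1 line and 3 to 5 without 1 replicate. For 3 h against 1 h after X-rays the count of 1 became 3 as deposited, 0 with complete probes only, 0 with quantile normalization of all probes, 0 to 1 without 1 line and 0 without any replicate.

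The fit to every array takes the arrays, not the lines, as replicates. At 3 h it called 6 genes after carbon ions, adding MAD2L1 and ZWILCH to the main 4, and 7 after X-rays. At 1 h it called 2 after carbon ions and 1 after X-rays. For 3 h against 1 h it called 6 after carbon ions and 4 after X-rays. It called 2 for the beam difference at 3 h and 9 between control sets. Deviations of same-numbered arrays correlated from -0.35 to 0.39 (median 0.03, above 0.1 in 63 of 270 pairs). Differently numbered arrays were not compared, so whether replicate numbers pair the arrays was not settled. With the replicate number as a block the same fit called 2 at 1 h after X-rays, and its other counts were unchanged. The share of all probes that this fit called is not given, so its counts have no background here.

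Calls within lines changed from 1 to 0 (1 h, X-rays) and from 5 to 3 (beam difference at 3 h) with the values as deposited. With the replicate number as a block they rose in some lines. At 3 h after carbon ions they went from 3 to 4 in Colo679, 5 to 6 in HMV-I and 4 to 6 in MeWo. At 3 h after X-rays they went from 1 to 3 in HMV-II. Without 1 replicate they were 9 to 13 at 3 h after carbon ions, 4 to 5 at 3 h after X-rays, 0 to 3 at 1 h after carbon ions, 0 to 1 at 1 h after X-rays, 0 to 1 for the beam difference at 3 h and 29 to 35 between control sets. Differences between lines after X-rays fell to 2 genes with median centring, 1 as deposited and 0 to 1 without 1 replicate, and after carbon ions were 0 to 3 without 1 replicate. Fewer samples or probes are part of the settings that leave some out; otherwise the cause was not tested. SPDL1 and BUB1B are dim, with intensities near 1 in some lines, which limits their precision.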
